A study of Mus musculus with 16 samples.

Results

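The response to phenobarbital was measured in wild-type mouse liver as miRNA levels on 8 arrays, 4 from mice given phenobarbital (WT_PB) and 4 controls (WT_H2O), out of 16 arrays in the series. The arrays were selected by their titles, and the comparison ran over all 611 mouse miRNA features of the array. Earlier results of these data were known when the arrays and the miRNA lists were chosen. WT_PB mice were male C3H wild types that ate a diet with 0.05% phenobarbital for 12 weeks. WT_H2O mice were male C3H wild types without phenobarbital over the same 12 weeks; their labels give water as the vehicle and the treatment notes a diet free of the drug. The other 8 arrays came from mice in which hepatocytes lack Ctnnb1 (beta-catenin) through Cre recombinase driven by the albumin promoter acting on a floxed allele, 4 with phenobarbital (CTNNB1KO_PB) and 4 without (CTNNB1KO_H2O). They entered the fit, where they share in the estimate of the spread. Whether the wild types carried the floxed allele or Cre is not stated. Nor is it stated that every array came from its own mouse, and the p-values therefore speak of array-to-array spread, some of which can be technical.

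Phenobarbital activates the nuclear receptor CAR in hepatocytes, which induces drug-metabolising enzymes, enlarges the liver and, over long exposure, promotes liver tumours in mice. A miRNA is a short RNA cut from one arm of a hairpin. It represses messenger RNAs that pair with its seed, bases 2 to 8, so miRNAs with one seed share many targets. The imprinted Dlk1-Dio3 region on chromosome 12 holds a large cluster of miRNAs that is mostly silent in adult liver.

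Selected miRNAs with higher or lower values have these mature sequences in RefSeq (GRCm38.p6), written 5′ to 3′ with the seed in capitals. Array names predate the naming by arm, and each was paired with its present arm by hand. The first, miR-802 (chr16:93369737-93369758, plus strand), was the one miRNA outside the Dlk1-Dio3 region that rose, and the next 2 led the rise inside it.
miR-802: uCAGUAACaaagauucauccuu
miR-376b: aUCAUAGAggaacauccacuu
miR-154*: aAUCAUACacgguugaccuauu
On the side of lower values stood miR-21 (chr11:86584120-86584141, minus strand), miR-148a (chromosome 6) and the blood-cell miRNA miR-142-3p (chromosome 11). With them stood 4 members of the miR-17 to miR-92 transcript (chromosome 14), of which miR-19a and miR-19b share a seed and differ at 1 of 23 positions. None of these lower miRNAs passed in the fit of all 16 arrays described below.
miR-21: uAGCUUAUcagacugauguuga
miR-148a: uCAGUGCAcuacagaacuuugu
miR-142-3p: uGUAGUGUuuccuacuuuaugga
miR-19a: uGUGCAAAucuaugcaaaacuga
miR-19b: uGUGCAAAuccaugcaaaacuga
miR-20a: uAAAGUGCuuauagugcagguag
miR-92a: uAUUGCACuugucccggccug

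Values are the deposited log2 levels. Features of mouse viruses, which uninfected liver should lack, gave a dim floor of 3.98 (the 0.95 quantile of their means), and 131 of the 611 mouse features had a mean above it in at least 1 WT group. Array replicates of a WT group correlated between 0.984 and 0.996 across features. WT_H2O replicate 4 had the lowest mean correlation with its group (0.986, against 0.990 to 0.992 for the other controls) and the lowest weight in a fit with array weights (0.318). Liver identity fitted the labels: miR-122, the defining hepatocyte miRNA, was the brightest feature, and 22 of 22 hepatocyte-abundant miRNAs lay above the floor. None of the 7 striated muscle or 4 exocrine pancreas markers did, while 2 of the 6 neural markers did. On all 4 control arrays miR-122 stood at the same value, 15.28, so its spread there is not a measured one.

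A difference passed when its limma p, adjusted by Benjamini-Hochberg over the 611 features in a fit of all 16 arrays, was under 0.05. By that rule 17 features rose with phenobarbital and none fell (2.78% of all features called, all of them higher), with 33 higher (5.4%) and 13 lower (2.13%) at an unadjusted p under 0.05. Inside the Dlk1-Dio3 interval 16 of 77 features rose, and outside it 1 of 534. Of the 17 that rose, 12 had a mean above the floor in at least 1 WT group. All 4 phenobarbital arrays lay above all 4 controls for 24 features (3.93% of the 611) and below them for 20 (3.27%), 7.2% in all. Of the 24, 18 were Dlk1-Dio3 features; of the 20, 2 were.

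**Figure D1:**
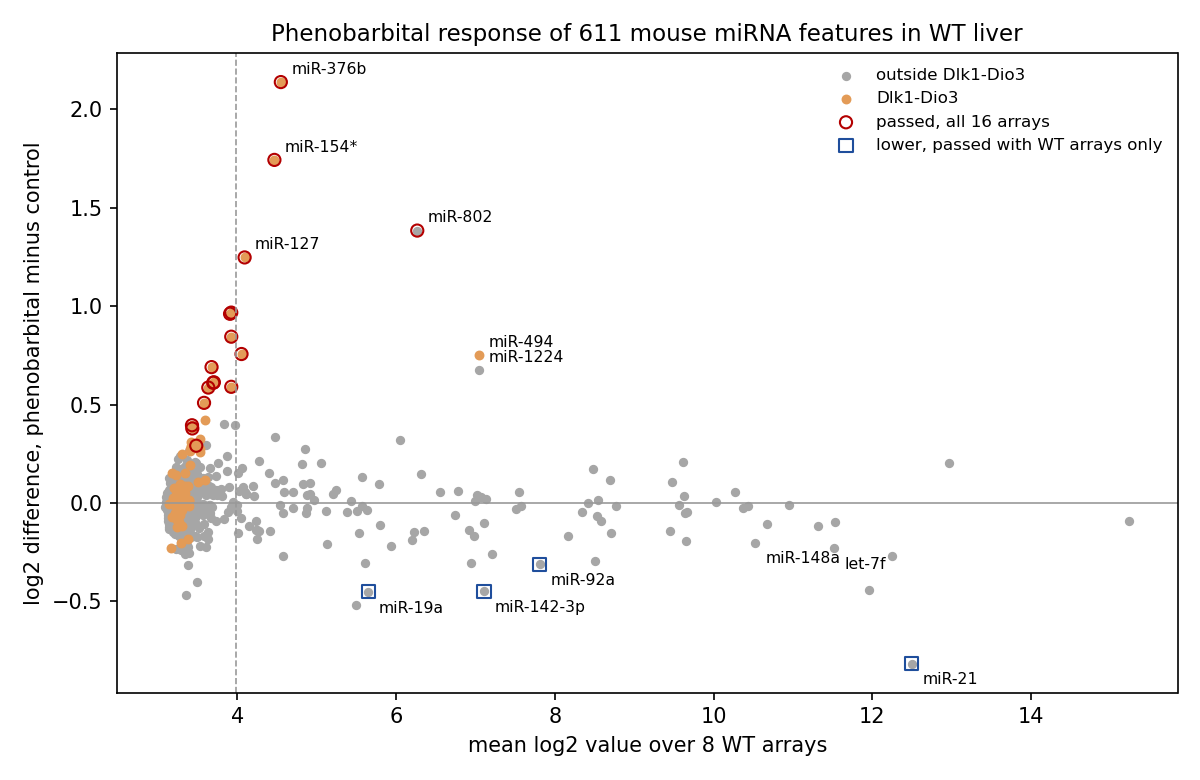
Each of the 611 mouse miRNA features by its mean log2 value over the 8 WT arrays (x) and its log2 difference, phenobarbital minus control (y); the dashed line is the dim floor of 3.98. The features that rose are nearly all dim Dlk1-Dio3 features near the floor, miR-802 stands apart outside that region, and blue squares mark the 4 lower features that passed with WT arrays only.

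Outside the Dlk1-Dio3 region, miR-802 rose. It is a liver miRNA known in mice to impair insulin signalling. Its log2 levels were 6.95, 7.09, 6.69 and 7.10 on the phenobarbital arrays, against 5.79, 5.18, 5.60 and 5.73 on the control arrays. The groups were far apart, the lowest treated array lying 0.91 above the highest control. The difference was 1.38 ± 0.23 (SE; 95% interval 0.90 to 1.86), or 2.61-fold, with a limma adjusted p of 0.000827. It passed in all 18 alternative settings, with adjusted p between 2.42e-05 and 0.00545. In livers without hepatocyte beta-catenin the same comparison gave 0.72 ± 0.23, and the difference between the genotypes' responses did not pass (-0.67 ± 0.32, limma adjusted p = 0.608).

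No other feature outside the region passed as higher. The nearest above the floor were miR-671-5p (0.40 ± 0.15, adjusted p = 0.351) and miR-592 (0.40 ± 0.16, adjusted p = 0.483), both close to the floor, with phenobarbital means of 4.03 and 4.17 and control means of 3.63 and 3.77. miR-592 did not overlap between groups, by a margin of 0.03. Phenobarbital replicate 2 held the lowest miR-671-5p of the treated arrays, 3.58, and without that array the feature passed (0.55, limma adjusted p = 0.0340). Brighter features with higher values were miR-720, miR-1224, miR-22*, miR-130a and miR-361, with differences between 0.20 and 0.68 and adjusted p between 0.782 and 0.924. miR-720 has since been withdrawn as a miRNA and is taken to be a tRNA fragment.

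Among these, miR-130a and miR-22* did not overlap between groups. miR-130a, a bright miRNA that represses Pparg, stood at 9.83, 9.63, 9.73 and 9.69 with phenobarbital, against 9.59, 9.51, 9.46 and 9.50 in controls. The shift was small beside its level, 0.21 ± 0.14, and the lowest treated array exceeded the highest control by 0.05. miR-22* read 6.19, 6.19, 6.21 and 6.24 with phenobarbital, against 5.96, 5.82, 6.00 and 5.77 in controls. The treated arrays were nearly identical while the controls were spread. Its difference was 0.32 ± 0.21 (limma adjusted p = 0.804).

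miR-22, the main product of the same hairpin as miR-22* and an abundant hepatocyte miRNA, had the opposite sign. Its phenobarbital arrays read 12.16, 12.18, 12.10 and 12.02, against 12.23, 12.77, 12.56 and 11.99 in controls. The groups overlapped through control replicate 4. The difference was -0.27 ± 0.14 (adjusted p = 0.715), and it turned to 0.18 after quantile normalization, where miR-22* was at 0.24 and overlapped. Neither arm passed in the fit of all 16 arrays, and the difference between the arms was not tested.

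On the falling side, none of the 611 features passed in the fit of all 16 arrays. At an unadjusted limma p under 0.05, 13 (2.13%) were lower, no more than this two-sided cut gives in one direction without any difference. Of these, 12 lay outside the Dlk1-Dio3 region, and 4 of those were above the floor: miR-21, miR-1895, miR-19a and miR-148a. The fit of all 16 arrays pools the spread of all 4 groups. When the spread was estimated from the 8 WT arrays alone, a setting planned as an alternative, 18 features passed, 14 higher (2.29%) and 4 lower (0.655%). Those 4 were miR-21, miR-19a, miR-92a and miR-142-3p. In settings added after the data were seen, WT arrays without phenobarbital replicate 1 gave 16 higher (2.62%) and 2 lower (0.327%, miR-21 and miR-19a), and WT arrays without control replicate 4 gave 18 higher (2.95%) and 5 lower (0.818%, those of all WT arrays except miR-92a, plus let-7f and miR-22). Their SDs in the CTNNB1KO groups were larger than in WT: 0.87 and 1.15 (CTNNB1KO_PB and CTNNB1KO_H2O) for miR-142-3p, against 0.20 and 0.15 (WT_PB and WT_H2O), 0.26 and 0.45 for miR-19a, against 0.10 and 0.13, 0.35 and 0.41 for miR-92a, against 0.06 and 0.11, and 0.49 and 0.71 for miR-21, against 0.20 and 0.39. For miR-21 the WT-only SE of 0.16 also lay below the 0.22 that its own 8 arrays give without limma's moderation, which draws each spread toward that of other features.

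miR-21, which is raised in many tumours, had the largest difference below 0 of all 611 features. It read 11.84, 12.02, 12.26 and 12.23 with phenobarbital, against 12.93, 13.24, 13.10 and 12.35 in controls. All treated arrays lay below all controls, but control replicate 4 lay 0.09 above the highest treated array. The difference was -0.82 ± 0.28 (95% interval -1.40 to -0.23), a phenobarbital level of 56.8% of control. Its limma adjusted p was 0.213 over all 16 arrays and 0.0124 over the WT arrays. Without control replicate 4 the difference was -1.00, with an adjusted p of 0.0844 over all other arrays and 2.42e-05 over the WT arrays. After quantile normalization it was -0.60 and the groups overlapped. In CTNNB1KO livers miR-21 differed by 0.03 ± 0.28, and the test between the genotypes' responses did not pass (0.85 ± 0.40, adjusted p = 0.565).

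The miR-17 to miR-92 transcript, a polycistron linked to cell proliferation, gave 4 bright or middling products that were lower on every phenobarbital array. miR-19a read 5.43, 5.51, 5.46 and 5.28 with phenobarbital, against 5.84, 5.93, 5.71 and 6.02 in controls. miR-92a read 7.70, 7.70, 7.58 and 7.63 with phenobarbital, against 7.94, 8.01, 7.83 and 8.08 in controls. Both sets of treated arrays were tightly grouped and did not reach the controls. The differences were -0.45 ± 0.19 for miR-19a (adjusted p = 0.483 over all arrays, 0.0149 over WT arrays) and -0.31 ± 0.19 for miR-92a (0.804 and 0.0454).

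miR-19b read 8.37, 8.43, 8.45 and 8.17 with phenobarbital, against 8.65, 8.60, 8.48 and 8.87 in controls, a difference of -0.30 ± 0.23. miR-20a read 6.84, 6.82, 6.95 and 6.55 with phenobarbital, against 6.97, 7.06, 7.02 and 7.34 in controls, a difference of -0.31 ± 0.19. In both, phenobarbital replicate 4 was the lowest array and control replicate 4 the highest. After quantile normalization miR-92a (-0.16) and miR-20a (-0.29) overlapped between groups, and miR-19a (-0.56) and miR-19b (-0.38) did not. miR-17 (-0.09 ± 0.08) and miR-18a (0.18 ± 0.11) lay under the floor in both groups. A second locus on the X chromosome also encodes miR-19b and miR-92a, and the probes for miR-19a and miR-19b face sequences that differ at 1 position, so these 4 values are not independent of each other. Of 12 measured paralogs of this family (miR-106a was not on the array), 0 passed over all 16 arrays, 4 did not overlap and were lower (20 of all 611 did), and the median difference was -0.12, against 0.00 over all 611. The products of the related Mcm7 locus were nearer to 0, at -0.15 ± 0.13 for miR-106b, 0.05 ± 0.14 for miR-93 and -0.04 ± 0.12 for miR-25.

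miR-142-3p, made in blood cells, read 6.74, 6.73, 6.91 and 7.15 with phenobarbital, against 7.35, 7.53, 7.30 and 7.15 in controls. The highest treated array and the lowest control differed by only 0.004. The difference was -0.45 ± 0.43 over all arrays (adjusted p = 0.984) and passed over the WT arrays (adjusted p = 0.0454), though not without phenobarbital replicate 1 (0.117). miR-92a likewise lost that call without phenobarbital replicate 1 (0.0614) or without control replicate 4 (0.138). miR-142-5p, from the other arm of the hairpin, differed by 0.04, and its groups overlapped. Of the 7 leukocyte markers, 4 lay above the floor, 4 had lower values and 3 higher ones, miR-142-3p alone without overlap. The log2 sum of their levels lay between 7.81 and 8.21 with phenobarbital and between 8.08 and 8.40 in controls. In bulk liver, fewer cells of a type and less RNA per cell cannot be told apart, and the part of blood cells in the lower miR-21 and miR-142-3p values was not tested.

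miR-148a, a hepatocyte miRNA that represses the DNA methyltransferase Dnmt1, read 10.37, 10.52, 10.44 and 10.35 with phenobarbital, against 10.60, 10.71, 10.56 and 10.61 in controls. The shift was small and the groups did not overlap, though after quantile normalization they did, with a difference of -0.09. Its difference was -0.20 ± 0.09 (adjusted p = 0.613 over all arrays, 0.142 over WT arrays), a phenobarbital level of 87.0% of control. miR-1895 read 4.53, 4.96, 5.72 and 5.71 with phenobarbital, against 5.81, 5.76, 5.80 and 5.63 in controls, so phenobarbital replicates 1 and 2 carried its difference of -0.52 ± 0.21 (adjusted p = 0.483). Of dim features, miR-1894-5p (4.59) and miR-211 (4.51) were high on control replicate 4, and neither exceeded 3.49 on any other WT array. miR-139-5p, above the floor, differed by -0.27 ± 0.13 (adjusted p = 0.715).

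**Figure D2:**
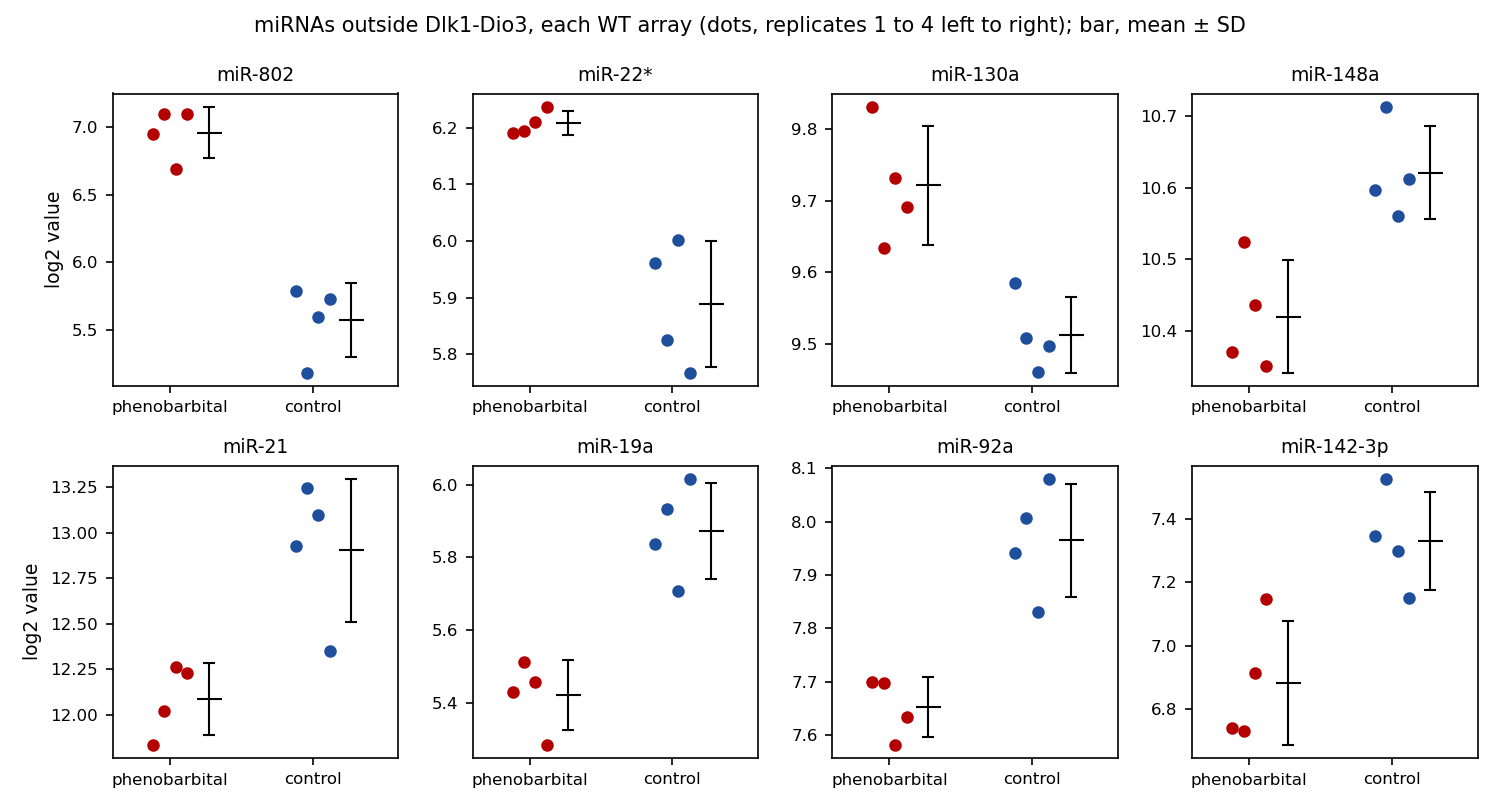
Log2 values (y, one scale per panel) of 8 miRNAs outside the Dlk1-Dio3 region on each phenobarbital (red) and control (blue) WT array, with mean ± SD (n = 4) as bars. The groups do not overlap in any panel; miR-802 is separated by 0.91 and miR-142-3p by 0.004.

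The 50 brightest features by mean over the WT arrays (lowest mean 6.92) have levels far above background. Their errors were not smaller for it, with a median SE of 0.15, against 0.10 over all 611 features. None of the 50 passed over all 16 arrays, and 2 (miR-21 and miR-148a) had an unadjusted limma p under 0.05. Values were lower with phenobarbital for 33 and higher for 17, with a median difference of -0.05, against 0.00 over all 611 features. All treated arrays lay below all controls for 10 of the 50 (3.27% of all features) and above them for 1 (3.93% of all features). These 10 were miR-21, miR-142-3p, miR-92a, miR-20a, miR-19b, miR-148a, miR-29b, miR-15a, miR-122 and miR-26a, and the 1 was miR-130a. After quantile normalization the 50 split into 23 lower, 22 higher and 5 at 0. There 3 of them (miR-142-3p, miR-19b and miR-29b) lay below all controls and 2 (miR-130a and miR-107) above, so the excess of lower values among bright features depends on the scaling.

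Most bright miRNAs moved little. For 36 of the 50 the difference was within 0.2 in either direction, and for 32 the 95% interval lay within 0.5. The hepatocyte miRNAs miR-192 and miR-194 differed by -0.09 ± 0.08 and 0.11 ± 0.15, and miR-126-3p, an endothelial miRNA, by 0.00 ± 0.10. miR-122 differed by -0.09 ± 0.05, from controls held at one value. Among bright miRNAs with higher values, miR-494 (0.75 ± 0.48) and miR-1224 (0.68 ± 0.40) had wide errors, and their groups overlapped.

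**Figure D3:**
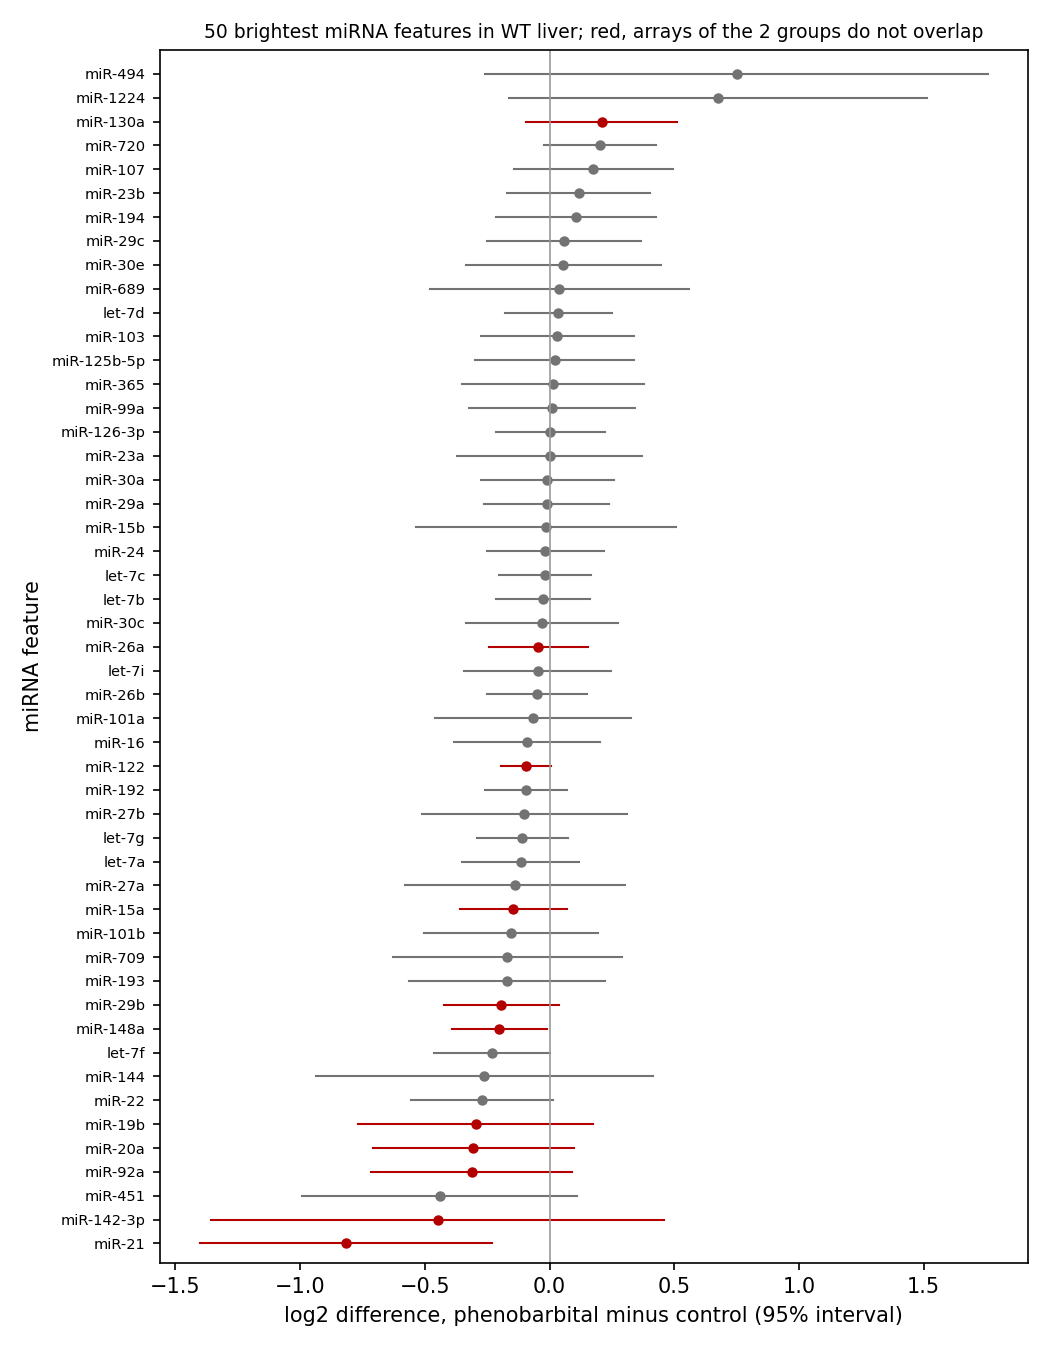
Log2 differences, phenobarbital minus control (x), with 95% limma intervals, of the 50 brightest miRNA features in WT liver, sorted by difference (y). In red are the 11 whose arrays do not overlap between groups, 10 lower and 1 higher; 33 of the 50 points lie below 0.

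The differences of bright miRNAs that share a seed were not all equal, but whether such relatives differed in their response was not tested. The let-7 family, which restrains growth through Lin28, Ras and Myc transcripts, had 7 members among the 50 brightest, and 6 of their differences were below 0. let-7f read 11.38, 11.52, 11.35 and 11.34 with phenobarbital, against 11.52, 11.83, 11.74 and 11.42 in controls. The groups overlapped. It differed by -0.23 ± 0.11 (adjusted p = 0.663), let-7a by -0.12 ± 0.11, let-7g by -0.11 ± 0.09, let-7c by -0.02 ± 0.09 and let-7d by 0.04 ± 0.10. let-7f and let-7a differ at 1 of 22 positions and let-7a and let-7c at 1 of 22, so probes may share signal.
let-7f: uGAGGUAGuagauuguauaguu
let-7a: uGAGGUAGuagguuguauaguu
let-7c: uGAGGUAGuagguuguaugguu
let-7d: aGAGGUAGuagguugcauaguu
None of the 9 measured let-7 features passed in either direction in the fit of all 16 arrays, 8 had lower values, and their median was -0.05. Quantile normalization turned the signs of let-7b and let-7c (0.01 and 0.06), and set let-7a and let-7g at 0.

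In the miR-29 family, which represses collagens and other matrix genes, miR-29b was separated and its relatives were not. miR-29b read 9.47, 9.60, 9.63 and 9.52 with phenobarbital, against 9.74, 9.80, 9.73 and 9.72 in controls. Every treated array was lower, by at least 0.09. The difference was -0.19 ± 0.11 (adjusted p = 0.804), and it was -0.20 on median-centred arrays and -0.25 after quantile normalization. miR-29a differed by -0.01 ± 0.12 and miR-29c by 0.06 ± 0.15. miR-29b differs from miR-29a at 4 of the first 22 positions and is encoded beside miR-29a on chromosome 6 and beside miR-29c on chromosome 1. The differences between relatives were not tested.
miR-29b: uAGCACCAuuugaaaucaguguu
miR-29a: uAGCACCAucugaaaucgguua
miR-29c: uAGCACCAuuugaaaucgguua

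In the fit of all 16 arrays, the remaining lists showed no call except that of miR-802 among the hepatocyte-abundant miRNAs (1 of 22, with 14 values below 0). None of the members passed in the miR-15 and miR-16 family (6), the miR-30 family (5), the miR-23, miR-27 and miR-24 clusters (5), the families of miR-99, miR-100 and miR-125 (5), the miR-200 family (5) or the liver-tumour associated list (13), and their median differences lay between -0.02 and 0.04. Nor did any of the erythroid (3), endothelial (2), stellate or mesenchymal (6), biliary or other epithelial (9), striated muscle (7), exocrine pancreas (4) or neural (6) markers. Of the hepatocyte-abundant miRNAs, miR-21 passed as lower with WT arrays only, and miR-21 and miR-22 did with array weights. The 3 erythroid markers all had lower values, with a median of -0.26. miR-451, the brightest of them, read 11.83, 11.53, 11.48 and 12.10 with phenobarbital, against 11.46, 12.46, 12.94 and 11.84 in controls, a difference of -0.44 ± 0.26. Controls alone spanned 1.48. The difference was -0.07 after quantile normalization, -0.19 without control replicate 3 and -0.68 without control replicate 1. Among miRNAs of prior interest, miR-34a differed by 0.02 ± 0.48, miR-375 by 0.07 ± 0.10 and miR-200b by 0.04 ± 0.17; the signs of miR-34a and miR-200b turned after quantile normalization (-0.09 and -0.07).

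One treated array, phenobarbital replicate 1, had lower values than the other 3 for most of the Dlk1-Dio3 features that rose. Over the 16 region features that rose, the median distance from the control mean was 0.37 on replicate 1, against 0.82, 0.83 and 0.76 on replicates 2, 3 and 4. The same 16 features lay above the floor 3 times on replicate 1 and 11, 13 and 10 times on the others, and never on a control array. Replicate 1 was the lowest treated array for 13 of the 16. Over all 77 region features, most of them dim, the median distance was 0.10 on replicate 1, against 0.08, 0.11 and 0.10 on the others. The 16 features were chosen by the same comparison, so this describes them and tests nothing.

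The shortfall differed among members. miR-154* read 4.43 on replicate 1, against 5.77, 5.68 and 5.48 on the other treated arrays and 3.65, 3.43, 3.76 and 3.54 in controls. Replicate 1 thus stood between the groups. miR-127 read 4.11, against 4.87, 4.98 and 4.90 on the other treated arrays and at most 3.61 in controls. miR-154 read 3.73 on replicate 1, against 4.35, 4.43 and 4.37, and there it fell inside the control range of 3.41 to 3.97. miR-299* did the same, at 3.72 on replicate 1, 4.45 to 4.60 on the other treated arrays and 3.32 to 3.81 in controls. By contrast, miR-376b reached 5.28, against 5.70, 5.92 and 5.57 on the others, and every control lay at or below 3.58. For the dim features miR-434-5p, miR-541 and miR-337-5p another array was the lowest.

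**Figure D4:**
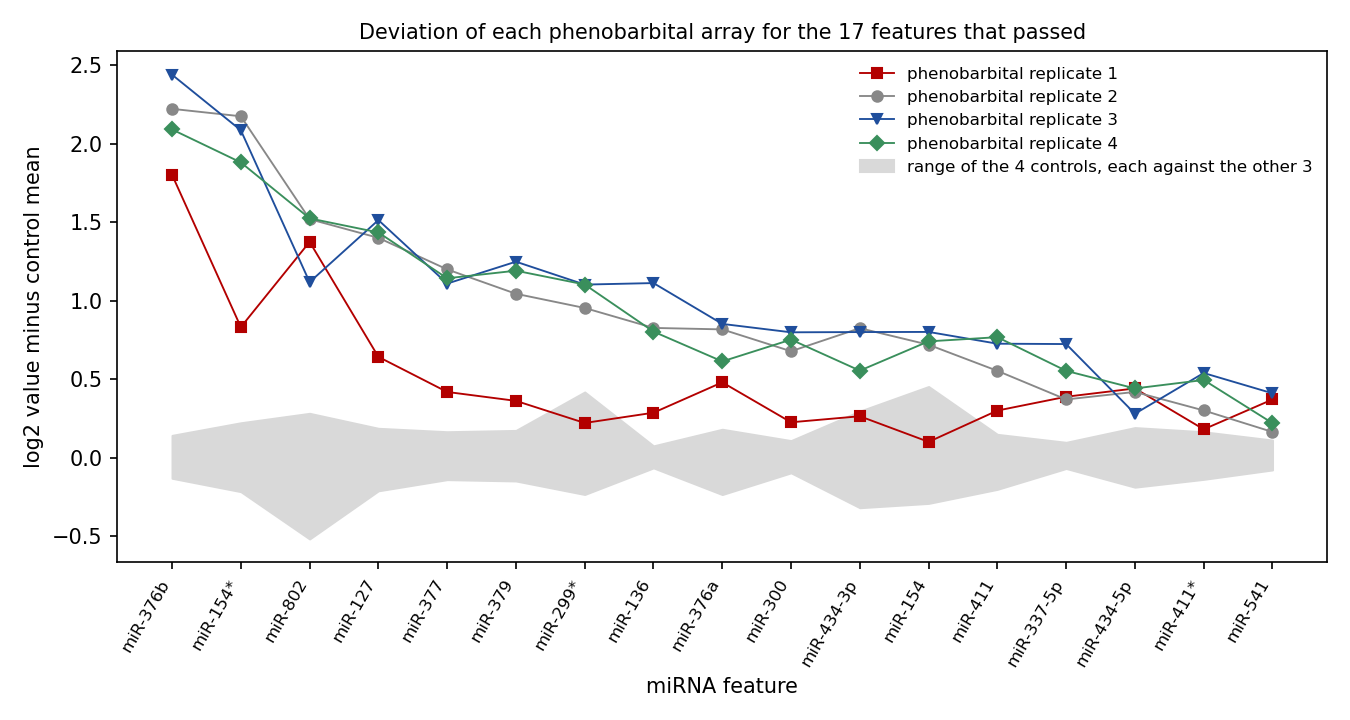
Log2 value minus the control mean (y) for the 17 features that rose (x, sorted by mean difference), one line per phenobarbital array; the grey band spans the 4 controls, each against the mean of the other 3. Replicate 1 (red squares) is lowest for 13 of the 16 Dlk1-Dio3 features and lies among the other arrays for miR-802.

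For miR-802 and miR-21, outside the region, the same array was not weak. Its miR-802 exceeded the control mean by 1.37, against 1.52, 1.12 and 1.52 on the other treated arrays, and its miR-21 lay furthest below it, by -1.07, against -0.88, -0.64 and -0.67. Over the 50 brightest features replicate 1 was the lowest treated array for 8, against 14, 13 and 15 for the others. Its median distance from the control mean was -0.04, against -0.08, -0.05 and -0.05 on replicates 2, 3 and 4. By that median, replicate 1 was lowered slightly less than the other treated arrays among bright features. Its number of mouse features above the floor (122, against 120, 131 and 133) and its mean correlation with its group (0.992, against 0.993 to 0.994) were near those of the other treated arrays. Above the floor, the 15 features where replicate 1 lay furthest below the mean of the other treated arrays included some outside the region. These were miR-1895 (a gap of -0.93), miR-709 (-0.59), miR-455 (-0.49), miR-143 (-0.44) and miR-21 (-0.33). Phenobarbital means of miR-1895, miR-709 and miR-21 lay below control, so there a lower replicate 1 is a larger departure, not a weaker one. What set replicate 1 apart was not tested.

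Without replicate 1, 17 features again passed and none fell (2.78% higher), of which 15 were among the 17 found with all arrays. Of the 16 region features that rose, 14 had larger differences without it and 2 smaller ones, miR-434-5p (0.38 without it and 0.39 with it) and miR-541 (0.26 and 0.29), which were the 2 calls lost. miR-154* was 2.05 ± 0.11 without it and 1.74 ± 0.20 with it, and miR-127 was 1.45 ± 0.11 and 1.25 ± 0.16. miR-802 was 1.39 ± 0.26 and 1.38 ± 0.23. miR-21 was -0.73 without replicate 1 and -0.82 with it, while miR-19a (-0.45) and miR-92a (-0.33 and -0.31) moved by 0.02 or less. Of the 17 features that rose, 7 also passed the test that their response differed between CTNNB1KO and WT livers (1.15% of all features), and 13 did without replicate 1. The 7 were all Dlk1-Dio3 features: miR-376b, miR-154*, miR-127, miR-377, miR-379, miR-376a and miR-411.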

How the data were processed

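Agilent miRNA arrays were hybridised with total RNA from liver. The deposited values are log2 levels per miRNA feature and array, and the authors' tools were RMA and limma according to the submitters' processing notes. Versions, background correction and filters: not given in the sources used here. RMA commonly equalises array distributions, which could hide a shift shared by most miRNAs. The deposited mouse values still differed in distribution, with highest values of 15.13 to 15.25 on WT_PB arrays and 15.28 on each WT_H2O array. Quantile normalization therefore changed some differences. Scanner intensities and slides were not used here, and precision is set by the number of arrays.

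Groups and replicate numbers came from the titles. With limma 3.58.1 in R 4.3.3, 1 mean per group was estimated for each of 611 mouse features over 16 arrays (eBayes with trend, 12 residual degrees of freedom; two-sided; Benjamini-Hochberg over 611). The procedure was tested on simulated data, and the outcome is not reported here. Loci came from a RefSeq table (GRCm38.p6) by name, and 590 of 611 features matched. Of 62 features looked up for a mature sequence, 59 had one. Members and lists were chosen with earlier results of these data known. Named miRNAs were up to 12 largest differences per direction that passed above the floor; outside Dlk1-Dio3 and above the floor the 8 smallest p per direction; among the 50 brightest the 5 brightest and the 6 smallest p per direction; 10 of prior interest; and list members that passed. Others, such as miR-20a, miR-19b, miR-92a, miR-142-3p, miR-211 and the seed relatives, were named after their values were seen. Alternatives were WT arrays alone, moderation without trend or robust, array weights, 2 scalings, a floor filter, a replicate block, another definition of bright (mean of at least 8) and each WT array left out.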

Additional observations from a re-analysis of the deposited data

Results flagged for a closer look

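Within groups of 4 arrays, a value was singled out where its gap to the nearest other array exceeded Dixon's 95% critical share of the group's range; chance singles out about 1 in 20 groups, and 88 groups were examined. Phenobarbital replicate 1 stood apart as the low array for miR-127 (4.11), miR-377 (3.86), miR-299* (3.72) and miR-154 (3.73). Phenobarbital replicate 4 stood apart for miR-23b (8.82, high) and miR-192 (11.39, low), and phenobarbital replicate 3 for miR-434-5p (3.51, low). Control replicate 4 stood apart for miR-361 (4.33, low).

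The phenobarbital response in CTNNB1KO livers minus that in WT livers passed (limma, adjusted over 611 features) for 7 features that rose in WT. It was -2.00 for miR-376b (adjusted p = 9.84e-06), -1.84 for miR-154* (0.00111), -1.20 for miR-127 (0.00681), -1.05 for miR-379 (0.00837), -0.95 for miR-377 (0.0101), -0.62 for miR-376a and -0.61 for miR-411 (0.0310 for each).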

How the results depend on the processing

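The 17 calls became 29 with array weights (24 higher, 5 lower), 14 after quantile normalization and 13 to 18 without any 1 WT array. With only features above the floor in at least 1 group they became 12. Lost there were miR-337-5p, miR-411, miR-411*, miR-434-5p and miR-541, which lay under the floor in both WT groups. Outside Dlk1-Dio3 the count was 1, against 5 with WT arrays only and 5 with array weights, and 1 to 2 without any 1 array; in settings chosen after seeing the data, WT arrays only without phenobarbital replicate 1 gave 3 and without control replicate 4 gave 6. Lower calls numbered 4 with WT arrays only (2 and 5 without those arrays in turn), 5 with array weights (miR-21, let-7f, miR-22, miR-668 and miR-675-5p) and 0 to 1 without any 1 array over all groups (miR-668 without phenobarbital replicate 2). Calls among bright miRNAs numbered 3 with WT arrays only (1 and 4 without those arrays in turn), 3 with array weights and 0 without any 1 array over all groups. The bright median was 0 after quantile normalization. Of the 17 features that rose, 14 passed the test between the genotypes' responses with array weights, and 5 to 13 did without any 1 WT array. Other features were not counted in these settings. The median distances of treated arrays from the control mean, over Dlk1-Dio3 features that rose, also depended on the setting. With only features above the floor they were 0.95, 1.11 and 1.10 for replicates 2, 3 and 4. After quantile normalization they were 0.70 and 0.61 for replicates 3 and 4, and leaving out a control gave 0.82 to 0.89 for replicate 3. Replicate 1, at 0.37 in the main setting, is not given for these settings, so they do not show whether its shortfall holds. After quantile normalization the differences turned in sign for miR-192 (0.082), miR-22 (0.18), miR-34a (-0.088) and miR-200b (-0.073). Without any 1 array miR-34a lay between -0.056 and 0.068, miR-29a between -0.045 and 0.012 and miR-200b between -0.021 and 0.083; the cause was not tested. The replicate block gave 17 calls, 16 of them shared with the fit without it; same-numbered arrays did not deviate together (correlations -0.05 to 0.04). Signal over background limits the rest: 415 of the 534 features outside Dlk1-Dio3 lay under the floor in both WT groups, and changes there may not be measurable.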
